A study of Arabidopsis thaliana with 18 samples.

Results

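The 31 genes described here encode the enzymes of tetrapyrrole synthesis in the thale cress Arabidopsis thaliana, the common model of plant genetics, together with 2 proteins that act on them. They were chosen by locus from the 27628 genes of the count table: 12 genes of the common steps, which lead to protoporphyrin IX, 13 of the chlorophyll branch, 2 of heme synthesis, 2 of the bilin branch and the regulator proteins GUN4 and FLU. The rule itself uses no measured value. RNA from leaves was sequenced in 18 libraries, with 3 in each of 6 groups: the ml2 knockdown at day 7 and day 0, the ml5 knockdown at day 7 and day 0, and the wild type (WT) at day 7 and day 0. Dark is the labelled treatment of every library, day 0 included, and the columns taken as day 0 are headed CK, where the protocol speaks of control check leaves, so day 0 is read as leaves before the dark week. The same protocol names doxycycline, which no sample label carries. The study's title names the plant autophagy pathway. The sources used here do not say how either knockdown was made, how old the plants were or at which hour leaves were taken. No group was kept in light until day 7, so darkness and a week of added age cannot be told apart. Below, dark response and a fall or rise in the dark mean day 7 against day 0.

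Tetrapyrroles include the ring molecules chlorophyll and heme and the opened bilin chromophore of phytochrome, and in leaves they are made in the plastid from glutamate. The first committed product is 5-aminolevulinic acid (ALA), from which a common row of enzymes builds protoporphyrin IX. There the pathway forks: insertion of magnesium leads to chlorophyll, and insertion of iron gives heme, part of which is opened by heme oxygenase and reduced to phytochromobilin. In angiosperms the step from protochlorophyllide to chlorophyllide needs light, and free intermediates are phototoxic, so the supply of ALA is held under control in the dark.

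All 31 genes had enough counts to be tested, and together they took between 0.18% and 1.07% of the counts of a library, whose totals ran from 14914598 to 20417396. ML2, the Mei2-like gene for which ml2 is named, stood at 27.8 ± 1.69 CPM in ml2 and 253 ± 5 CPM in WT at day 7, and at 6.35 ± 1.02 CPM in ml2 and 61.2 ± 2.26 CPM in WT at day 0 (CPM, counts scaled to a common library size, mean ± SD, n = 3 libraries here and below). ML5 stood at 0.69 ± 0.17 CPM in ml5 and 328 ± 14.5 CPM in WT at day 7, and at 1.21 ± 0.327 CPM in ml5 and 208 ± 5.85 CPM in WT at day 0. The 4 leaf mesophyll markers fitted the labelled tissue, since their summed level was 54606 to 74528 CPM at day 0, while the 6 root markers never exceeded 8.88 CPM in sum. One library stood apart: ml2 day 0 replicate 1 differed from the other two of its group with chi-square values of 13.3 and 8.96 per degree of freedom, where counting noise alone gives 1 and no other pair of replicates exceeded 5.91. Over the 31 genes these values were 47.4 and 31.9, and CHLH, CHLD and GUN4 were higher there than in the other two libraries.

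Most of the pathway was lower after the dark week in all 3 genotypes, deepest in the chlorophyll branch, while heme oxygenase HO1 and ferrochelatase FC1 were higher. In WT 27 of the 31 genes fell and 3 rose, where 39.9% of the 19493 tested genes fell and 42% rose. Their median log2 fold change, day 7 over day 0, was -2.80, beside 0.04 for all tested genes. In ml2 27 genes fell and 3 rose, beside 40.1% and 39.5% of tested genes, and the median was -2.21. In ml5 28 fell and 2 rose, beside 40.1% and 39.7% of tested genes, and the median was -2.34. In all 11 comparisons given here the median of all tested genes lay between -0.03 and 0.04. All 13 genes of the chlorophyll branch fell in every genotype, with medians of -4.19 in ml2, -4.14 in ml5 and -4.58 in WT, where the medians of the common steps were -0.92, -1.20 and -1.44. Tests are edgeR's quasi-likelihood test on all tested genes, with Benjamini-Hochberg adjustment and a threshold of 0.05. Nothing in the labels states that replicates come from separate plants, so p-values measure the spread between these libraries, which may be technical. In whole leaves, fewer cells of a type and less RNA per cell cannot be told apart: the summed mesophyll markers stood at 971 to 979 CPM in WT day 7 libraries, against 70254 to 72496 CPM in WT day 0 libraries, at 890 to 933 CPM against 54606 to 59895 CPM in ml2, and at 1812 to 1858 CPM against 72112 to 74528 CPM in ml5. All 4 of these markers fell in every genotype, and none was at 0. In WT the summed guard cell markers were 73.5 to 76.7 CPM at day 7 and 55.5 to 62.5 CPM at day 0, the epidermis markers 24.3 to 27.8 CPM and 102 to 107 CPM, the phloem markers 127 to 134 CPM and 320.2 to 346 CPM, and the xylem markers 2.06 to 3.25 CPM and 9.4 to 11.2 CPM, while flower markers stayed at or under 4.17 CPM and both seed markers were at 0 in every library. The part of all these cell types in the fall of the tetrapyrrole genes was not tested.

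**Figure D1:**
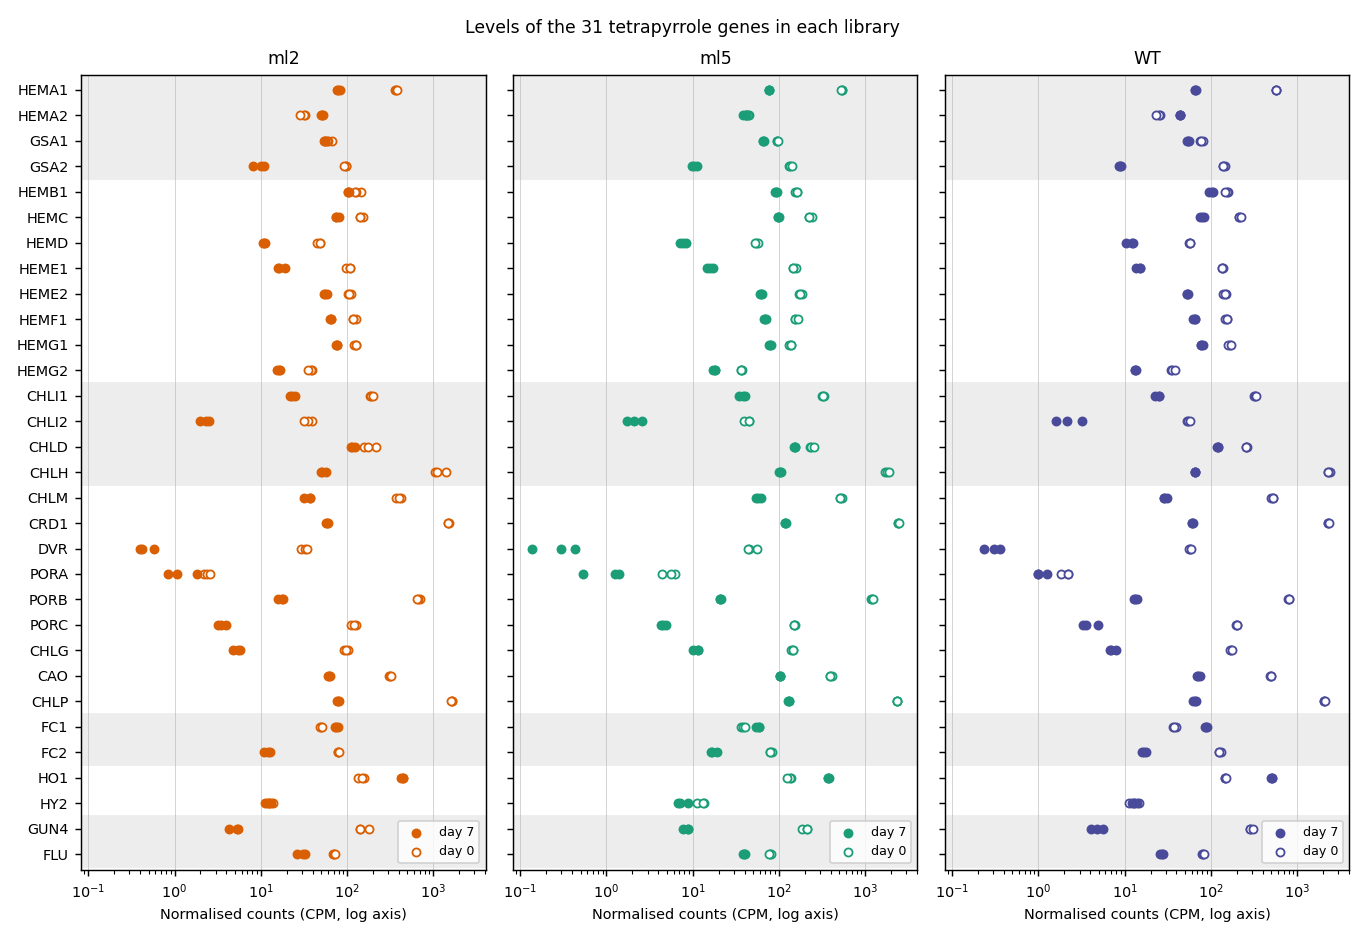
Normalised counts (CPM, logarithmic axis) of the 31 genes in every library of ml2, ml5 and WT, with day 7 as filled and day 0 as open circles; shading separates the steps. Day 7 lies left of day 0 for most genes, and right of it for FC1 and HO1 in all 3 genotypes and for HEMA2 in ml2 and WT.

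Formation of ALA begins with glutamyl-tRNA reductase, the controlled entry step, which HEMA1 (AT1G58290) and HEMA2 (AT1G09940) encode. HEMA1 had 66.1, 67.8 and 65.3 CPM in the WT day 7 libraries, against 579, 575 and 575 CPM in the WT day 0 libraries. The groups did not overlap, and HEMA1 fell by 3.12 on the log2 scale (SE 0.04, adjusted p = 7.45e-38, edgeR). HEMA2 had 43.5, 44.5 and 44.4 CPM in the WT day 7 libraries, against 25.7, 25.4 and 23 CPM in the WT day 0 libraries. Its 3 dark libraries all lay above the 3 day 0 libraries, and the log2 fold change was 0.84 ± 0.07 (SE, adjusted p = 7.73e-14, edgeR). HEMA1 changed by -2.21 ± 0.04 in ml2 and -2.80 ± 0.04 in ml5. HEMA2 rose in ml2 as well, by 0.74 ± 0.06, but in ml5 it had 41.6, 38.6 and 41.1 CPM in the ml5 day 7 libraries, against 45.1, 43.7 and 42 CPM in the ml5 day 0 libraries, so that each dark library was slightly below each day 0 library, with a log2 fold change of -0.11 ± 0.06 (adjusted p = 0.116, edgeR). With library sizes in place of TMM scaling that value turned positive and passed, at 0.30.

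The second enzyme of ALA formation, glutamate-1-semialdehyde aminotransferase, is likewise encoded by a pair of genes, and these moved by different amounts. GSA2 (AT3G48730) had 8.61, 8.83 and 9.21 CPM in the WT day 7 libraries, against 145, 141 and 138 CPM in the WT day 0 libraries. GSA1 (AT5G63570) had 54.4, 53.7 and 55.2 CPM in the WT day 7 libraries, against 81, 75.7 and 77.3 CPM in the WT day 0 libraries. Neither gene's groups overlapped. GSA2 changed by -3.30 ± 0.08 in ml2, -3.69 ± 0.07 in ml5 and -3.99 ± 0.08 in WT, and GSA1 by -0.16 ± 0.06, -0.53 ± 0.05 and -0.52 ± 0.06 in the same order. The call for GSA1 in ml2 is fragile: without ml2 day 0 replicate 1 the log2 fold change was -0.10 (adjusted p = 0.0995, edgeR), and with library sizes alone it was 0.07.

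The 8 genes from ALA to protoporphyrin IX all fell in each genotype, with medians of -0.92 in ml2, -1.20 in ml5 and -1.44 in WT. In WT the fall was smallest for HEMB1 (AT1G69740), the ALA dehydratase, which had 95.1, 105 and 107 CPM in the WT day 7 libraries, against 157, 156 and 147 CPM in the WT day 0 libraries. It was largest for HEME1 (AT3G14930), one of a pair of uroporphyrinogen III decarboxylases, which had 15.1, 15.1 and 13.5 CPM in the WT day 7 libraries, against 137, 139 and 137 CPM in the WT day 0 libraries. HEME2 (AT2G40490), the other decarboxylase gene, changed by -1.43 ± 0.05 in WT, against -3.23 ± 0.07 for HEME1. HEMD (AT2G26540), the uroporphyrinogen III synthase, changed by -2.30 ± 0.08. The porphobilinogen deaminase HEMC (AT5G08280), the coproporphyrinogen oxidase HEMF1 (AT1G03475) and the protoporphyrinogen oxidases HEMG1 (AT4G01690) and HEMG2 (AT5G14220) changed by -1.46, -1.23, -1.08 and -1.44 in that order. In ml2 the 8 values ran from -2.60 to -0.34 and in ml5 from -3.24 to -0.78.

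Magnesium chelatase, which opens the chlorophyll branch, is built from I, D and H subunits, and the genes of the 3 subunits fell to different degrees. CHLH (AT5G13630), the large porphyrin-binding subunit, had 65.4, 66.1 and 65.5 CPM in the WT day 7 libraries, against 2424, 2289.8 and 2283 CPM in the WT day 0 libraries. CHLI1 (AT4G18480), the main ATPase subunit, had 25.4, 24.8 and 22.8 CPM in the WT day 7 libraries, against 321, 324 and 334 CPM in the WT day 0 libraries. CHLI2 (AT5G45930), its minor copy, had 3.2, 2.15 and 1.61 CPM in the WT day 7 libraries, against 53.6, 54.6 and 56.9 CPM in the WT day 0 libraries. In each case all dark libraries lay far below all day 0 libraries. CHLD (AT1G08520), the bridging subunit, had 122, 121 and 118 CPM in the WT day 7 libraries, against 265, 256 and 258 CPM in the WT day 0 libraries. Its groups did not overlap either, but its log2 fold change of -1.11 ± 0.08 in WT stood beside -5.15 ± 0.08 for CHLH, -3.74 ± 0.06 for CHLI1 and -4.55 ± 0.16 for CHLI2. CHLD was also the chelatase gene with the smallest change in both lines, at -0.67 ± 0.08 in ml2 and -0.66 ± 0.08 in ml5.

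GUN4 (AT3G59400), which binds porphyrins and stimulates the chelatase, had 4.1, 5.61 and 4.78 CPM in the WT day 7 libraries, against 285, 286 and 307 CPM in the WT day 0 libraries. Its log2 fold change was -4.96 ± 0.13 in ml2, -4.58 ± 0.11 in ml5 and -5.92 ± 0.13 in WT. GUN4 overlaps an antisense gene, AT3G59410, over 946 bases, and since counting by strand is not stated, reads of the pair cannot be told apart. Shorter overlaps exist for other members, the longest being 420 bases at HEMC and 414 bases at CHLP. FLU (AT3G14110), a protein that represses glutamyl-tRNA reductase in the dark, had 27.1, 28.1 and 25.5 CPM in the WT day 7 libraries, against 79.1, 82.1 and 84 CPM in the WT day 0 libraries. FLU fell by less than GUN4, with -1.24 ± 0.07 in ml2, -1.001 ± 0.064 in ml5 and -1.60 ± 0.07 in WT.

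The 9 genes that lead from magnesium protoporphyrin to chlorophyll held the largest falls of the pathway, with medians of -4.38 in ml2, -4.18 in ml5 and -4.99 in WT. CRD1 (AT3G56940), a subunit of the cyclase that closes the fifth ring, had 61.7, 60.1 and 59.9 CPM in the WT day 7 libraries, against 2305, 2313 and 2339 CPM in the WT day 0 libraries. CHLP (AT1G74470), the geranylgeranyl reductase that supplies the phytyl tail, had 65.6, 68.2 and 62.1 CPM in the WT day 7 libraries, against 2068, 2083 and 2092 CPM in the WT day 0 libraries. Both groups of both genes stood far apart. The methyltransferase CHLM (AT4G25080) changed by -4.14 ± 0.06 in WT, the chlorophyll synthase CHLG (AT3G51820) by -4.58 ± 0.08 and CAO (AT1G44446), the oxygenase that makes chlorophyll b, by -2.80 ± 0.04. DVR (AT5G18660), the divinyl reductase, had 0.361, 0.234 and 0.302 CPM in the WT day 7 libraries, against 56.9, 56.2 and 58.8 CPM in the WT day 0 libraries. Its -7.55 ± 0.35 was the largest change of any member, and it rests on 5 to 8 counts per WT day 7 library.

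The NADPH:protochlorophyllide oxidoreductases catalyse the light-requiring step. PORA is best known from etiolated seedlings and PORB and PORC from green tissue. The 250 bases before the transcript start of PORA and PORB are shown because both hold an evening element while the genes stand at the lowest and the highest level of the 3 copies. Capitals mark the motifs searched, which are the evening element AAATATCT in both genes (written on the given strand), the I-box GATAAG in PORA (present as its reverse complement) and CCAATC in PORB, which has it at 2 places.
PORA (chr5:21992815-21993064, TAIR10.1, minus strand): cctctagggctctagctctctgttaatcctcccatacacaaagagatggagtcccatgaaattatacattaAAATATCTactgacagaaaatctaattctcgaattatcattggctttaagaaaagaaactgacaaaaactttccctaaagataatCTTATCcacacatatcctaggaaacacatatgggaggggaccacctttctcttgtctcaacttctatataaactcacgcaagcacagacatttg
PORB (chr4:13725296-13725545, TAIR10.1, plus strand): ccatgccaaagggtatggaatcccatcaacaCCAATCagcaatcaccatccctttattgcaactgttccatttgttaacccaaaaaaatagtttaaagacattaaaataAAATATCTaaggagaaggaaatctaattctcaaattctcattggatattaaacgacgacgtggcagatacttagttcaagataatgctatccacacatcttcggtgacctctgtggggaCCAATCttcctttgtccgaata
PORB (AT4G27440, chr4:13725546-13727440, plus strand) had 13.9, 12.8 and 13.3 CPM in the WT day 7 libraries, against 803, 784 and 812 CPM in the WT day 0 libraries. PORC (AT1G03630) had 3.52, 4.86 and 3.27 CPM in the WT day 7 libraries, against 195, 201 and 201 CPM in the WT day 0 libraries. PORA (AT5G54190, chr5:21990864-21992814, minus strand) had 0.992, 0.981 and 1.26 CPM in the WT day 7 libraries, against 2.23, 1.83 and 2.22 CPM in the WT day 0 libraries. All 3 genes were lower in the dark with no overlap of the groups. The log2 fold changes of -5.91 ± 0.05 for PORB and -5.67 ± 0.10 for PORC stood beside -0.97 ± 0.30 for PORA, a gene near the lower limit of detection in these leaves, whose call in WT was lost with library sizes alone (-0.59, adjusted p = 0.0696, edgeR). In the lines PORA changed by -0.95 ± 0.28 in ml2 and -2.33 ± 0.27 in ml5, and PORB by -5.29 ± 0.05 and -5.85 ± 0.05. PORA was the one member with a fractional value in the deposited counts, in a WT and an ml2 library of day 0.

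Ferrochelatase, which inserts iron and so makes heme, is encoded by a pair of genes that moved in opposite directions. FC1 (AT5G26030, chr5:9096451-9099185, plus strand) is expressed in roots as well as leaves, and FC2 (AT2G30390, chr2:12950954-12954148, minus strand) mainly in green tissue. Their upstream windows follow as a description of letters. FC2 holds a G-box, CACGTG, in capitals, 48 bases before the start of its listed transcript, which lies inside the annotated gene. FC1 holds none of the 5 motifs searched. Whether the motif bears on the response of either gene was not tested.
FC1 (chr5:9096201-9096450, TAIR10.1, plus strand): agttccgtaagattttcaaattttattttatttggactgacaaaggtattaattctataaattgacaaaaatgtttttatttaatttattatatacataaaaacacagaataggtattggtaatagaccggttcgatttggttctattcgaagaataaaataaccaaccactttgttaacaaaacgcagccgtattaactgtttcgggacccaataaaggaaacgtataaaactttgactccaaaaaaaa
FC2 (chr2:12954115-12954364, TAIR10.1, minus strand): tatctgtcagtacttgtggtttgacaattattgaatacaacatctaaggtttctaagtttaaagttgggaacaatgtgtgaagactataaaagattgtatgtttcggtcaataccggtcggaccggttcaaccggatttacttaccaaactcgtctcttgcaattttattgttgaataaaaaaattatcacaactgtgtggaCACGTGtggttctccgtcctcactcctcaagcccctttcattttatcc
FC1 had 86.5, 90.2 and 88.8 CPM in the WT day 7 libraries, against 39.7, 36.5 and 37.8 CPM in the WT day 0 libraries. FC2 had 17.6, 16.8 and 16.1 CPM in the WT day 7 libraries, against 126, 131 and 125 CPM in the WT day 0 libraries. All dark libraries lay above those of day 0 for FC1 and below them for FC2. The log2 fold change of FC1 was 0.60 ± 0.06 in ml2, 0.58 ± 0.06 in ml5 and 1.22 ± 0.06 in WT (adjusted p = 1.01e-20 in WT, edgeR). FC2 changed by -2.73 ± 0.07, -2.21 ± 0.07 and -2.91 ± 0.07 in the same order (adjusted p = 2.10e-31 in WT, edgeR).

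The bilin branch runs from heme through HO1 (AT2G26670, chr2:11341548-11343693, plus strand), the main plastid heme oxygenase, to HY2 (AT3G09150), the phytochromobilin synthase. HO1 had 509, 507 and 500 CPM in the WT day 7 libraries, against 146, 148 and 149 CPM in the WT day 0 libraries. Every dark library was above every day 0 library, and the log2 fold change of 1.77 ± 0.05 was the largest rise among the members (adjusted p = 1.42e-28, edgeR). HO1 rose in the lines by 1.58 ± 0.05 in ml2 and 1.51 ± 0.05 in ml5. HY2 had 12.7, 12.2 and 14 CPM in the WT day 7 libraries, against 11.4, 14.7 and 13 CPM in the WT day 0 libraries. These groups overlapped, and the log2 fold change was -0.005 ± 0.12; with library sizes alone it became 0.38 and passed. In ml2 the value was -0.06 ± 0.11 and did not pass, while in ml5 it had 6.77, 7.09 and 8.9 CPM in the ml5 day 7 libraries, against 11.2, 13.7 and 13.1 CPM in the ml5 day 0 libraries, with no overlap and a fall of 0.75.

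**Figure D2:**
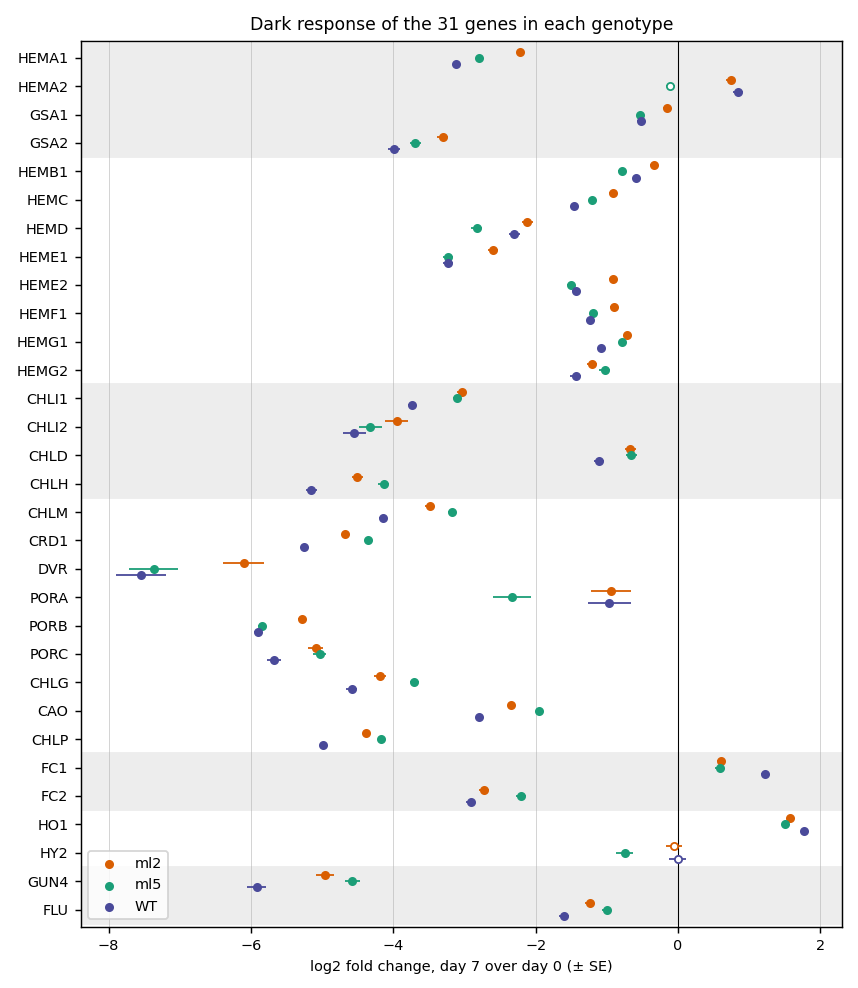
Log2 fold change of the 31 genes, day 7 over day 0, in ml2, ml5 and WT; bars are the SE of the fit, and open circles mark values that did not pass the adjusted threshold. Genes of the chlorophyll branch lie on the left, and HO1 and FC1 lie right of 0 in all 3 genotypes.

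The G-box CACGTG, a site bound by light-signalling factors such as HY5 and the PIF proteins, was found in the upstream windows of 5 of the 31 genes (16.1%), beside 6.59% of 27418 windows of the same length across the table. Of these 5 genes HEMD, CRD1, CAO and FC2 fell in the dark in every genotype, and HY2 fell in ml5 but did not pass in ml2 or WT. Among all 31 members 27 fell in WT, 27 in ml2 and 28 in ml5, so a fall does not set the G-box genes apart. A link between the motif and the dark response was not tested. The stretches around the motif, in capitals, are given to show its setting; FC2 is shown above.
HEMD (chr2:11290361-11290403, TAIR10.1, minus strand): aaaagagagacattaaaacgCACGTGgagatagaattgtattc
CRD1 (chr3:21076433-21076478, TAIR10.1, plus strand): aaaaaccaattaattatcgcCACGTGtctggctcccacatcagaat
CAO, distal copy (chr1:16851298-16851343, TAIR10.1, minus strand): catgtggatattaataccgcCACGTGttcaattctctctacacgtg
CAO, proximal copy (chr1:16851278-16851323, TAIR10.1, minus strand): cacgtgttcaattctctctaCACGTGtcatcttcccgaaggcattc
HY2 (chr3:2803429-2803474, TAIR10.1, plus strand): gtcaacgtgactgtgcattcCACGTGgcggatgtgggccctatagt
The motif begins 79 bases before the start in HY2, 52 in CRD1, 52 and 32 in CAO and 23 in HEMD. CCAATC, which has been linked to GLK factors, was in 3 windows (GSA2, GUN4 and PORB, 9.68% beside 10.3%), the I-box in 2 (HEMF1 and PORA, 6.45% beside 12.3%), the evening element in 2 (6.45% beside 4.81%) and the FHY3 and FAR1 site CACGCGC in 0, beside 1.09%. Both strands were searched, and a match is a description of letters only.

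Of 20 further genes of tetrapyrrole metabolism 19 were tested. In ml2 13 of them fell and 3 rose, in ml5 12 fell and 4 rose, and in WT 13 fell and 3 rose, with a median of -1.27 in WT, beside the shares of all tested genes given above. The smallest adjusted p-values belonged to the locus AT2G35260 (-4.04 ± 0.05), to LIL3:2 (-3.56 ± 0.05), a light-harvesting-like protein that anchors CHLP in the membrane, and to AT5G58250, annotated as EMB3143 (-1.93 ± 0.06). Of 9 transcription factors known to act on the pathway 5 fell and 3 rose in ml2 and in ml5, beside 40.1% falling and 39.5% and 39.7% rising among all tested genes, and 5 fell and 2 rose in WT, beside 39.9% and 42%, so these counts lie near the background. HY5, an activator of light-induced genes, rose by 3.47 ± 0.12, while PIF1, a repressor of chlorophyll synthesis in the dark, changed by -3.61 ± 0.13 and GLK1, an activator of chloroplast genes, by -1.22 ± 0.04.

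Divided by transcript length, levels can be compared between genes and summed by branch. The 31 genes summed to 993 ± 7.05 CPM per kb in WT at day 7 and 6382 ± 46.2 at day 0. The chlorophyll branch held 22.7 ± 0.278% of that sum in WT at day 7 and 76.7 ± 0.08% at day 0 (mean ± SD). The bilin branch held 36.7 ± 0.327% at day 7 and 1.75 ± 0.023% at day 0. Almost all of the bilin share was HO1, with 36.3%, 35.8% and 35.7% of the members' sum in the WT day 7 libraries and 1.62%, 1.64% and 1.64% in the WT day 0 libraries. HO1 ranked first per length at day 7 in WT, at 357 ± 3.32 CPM per kb, ahead of HEMB1 at 54.8 ± 3.36. At day 0 CRD1 ranked first, at 1553 ± 11.8 CPM per kb, ahead of CHLP at 997 ± 5.72. HO1 was likewise first at day 7 and CRD1 first at day 0 in both lines.

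The heme genes held 5.25 ± 0.038% of the sum in WT at day 7 and 1.35 ± 0.0259% at day 0, although their summed level was 52.1 ± 0.732 CPM per kb at day 7 and 86.3 ± 1.06 at day 0. The common steps held 32.5 ± 0.579% at day 7 and 15.5 ± 0.0797% at day 0. In ml2 the chlorophyll branch held 23.9 ± 0.429% at day 7 and 75.7 ± 0.179% at day 0, and in ml5 34.8 ± 0.329% at day 7 and 78.6 ± 0.24% at day 0. At day 7 its share was thus 12.1 percentage points higher in ml5 than in WT, with no overlap, and 1.23 points higher in ml2 than in WT. The bilin share at day 7 was 33.3 ± 0.412% in ml2 and 25.2 ± 0.254% in ml5, against 36.7 ± 0.327% in WT. For each of these share comparisons the groups were apart and the two-sided exact permutation p was 0.1, which is the smallest that 3 libraries against 3 allow. The difference of ml2 from WT in the chlorophyll share at day 7 depends on length scaling. Without it the share was 27.7 ± 0.714% in ml2 and 27.2 ± 0.311% in WT, and 39.3 ± 0.274% in ml5.

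**Figure D3:**
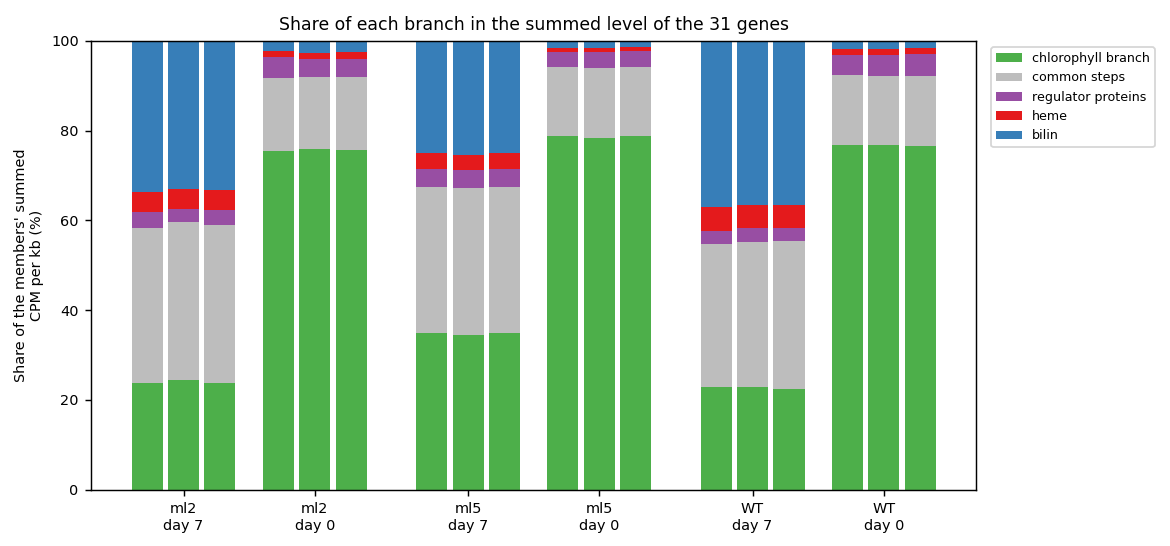
Share (%) of each branch in the summed CPM per kb of the 31 genes, 1 bar per library, with day 7 left of day 0 in ml2, ml5 and WT. The chlorophyll branch (green) is the smaller at day 7 in every genotype and the bilin branch (blue) the larger, and among day 7 bars the green part is largest in ml5.

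Several steps are served by paired genes, and their ratio within a library does not depend on scaling between libraries. How reads that match both genes of a pair were counted is not given. In WT the log2 ratio of HEMA2 to HEMA1, per length, was -0.52 ± 0.03 at day 7 and -4.48 ± 0.08 at day 0, so that HEMA1 stayed the higher of the pair at both times. GSA1 to GSA2 was 2.58 ± 0.04 at day 7 and -0.88 ± 0.03 at day 0, and FC1 to FC2 was 2.27 ± 0.09 at day 7 and -1.87 ± 0.09 at day 0. In these pairs the higher gene was a different one at day 7 and at day 0, in all 3 genotypes. PORA to PORB was -3.73 ± 0.20 at day 7 and -8.69 ± 0.13 at day 0, with PORB the higher at both times. HEME1 to HEME2 went the other way, with -2.28 ± 0.12 at day 7 and -0.47 ± 0.04 at day 0, as did CHLI2 to CHLI1 with -3.36 ± 0.42 at day 7 and -2.50 ± 0.01 at day 0. HEMG1 to HEMG2 was 3.12 ± 0.04 at day 7 and 2.77 ± 0.08 at day 0. All 7 ratios were apart between days in WT (exact permutation p = 0.1, two-sided, the smallest possible). PORC to PORB overlapped, at -2.10 ± 0.35 at day 7 and -2.31 ± 0.04 at day 0 (exact permutation p = 0.5).

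In the lines several of these ratios stood apart from those of WT. FC1 to FC2 was 2.53 ± 0.08 in ml2 and 1.61 ± 0.10 in ml5 at day 7, against 2.27 ± 0.09 in WT. At day 0 it was -0.81 ± 0.02 in ml2 and -1.19 ± 0.10 in ml5, against -1.87 ± 0.09 in WT. All 4 of these comparisons with WT were apart. HEMA2 to HEMA1 at day 0 was -3.51 ± 0.13 in ml2 and -3.55 ± 0.05 in ml5, against -4.48 ± 0.08 in WT, and each line stood apart from WT. PORC to PORB at day 0 was -2.79 ± 0.14 in ml2 and -3.32 ± 0.03 in ml5, against -2.31 ± 0.04 in WT, again without overlap.

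**Figure D4:**
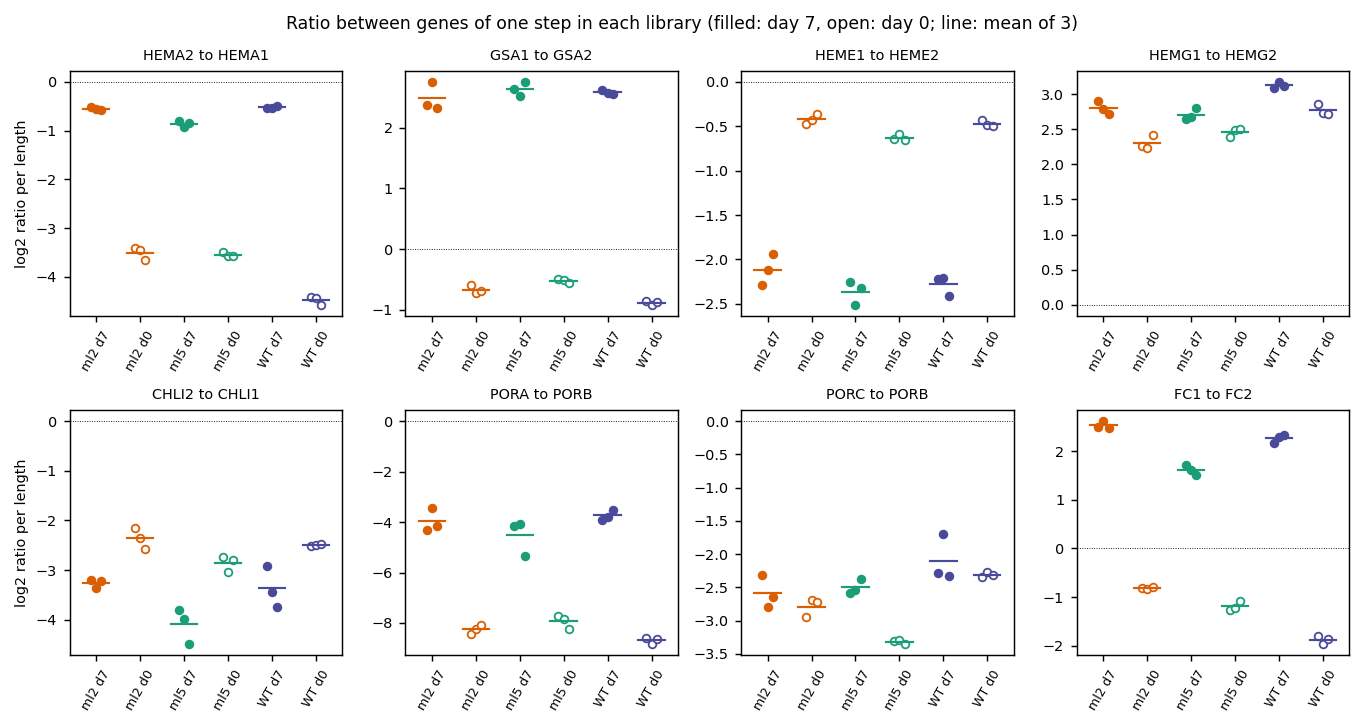
Log2 ratio per transcript length between genes of one step in each library, with ml2, ml5 and WT from left to right and day 7 (filled) left of day 0 (open); lines are means of 3 libraries and the dotted line marks equal levels. The ratios GSA1 to GSA2 and FC1 to FC2 lie above 0 at day 7 and below it at day 0.

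Before the dark week ml2 leaves held less of most of these transcripts than WT leaves. At day 0 25 of 31 genes were lower in ml2 and 2 higher, where 22.4% of tested genes were lower and 22% higher, and the median log2 fold change was -0.41. In the chlorophyll branch 12 of 13 were lower, with a median of -0.62. CHLH had 1421, 1067 and 1121 CPM in the ml2 day 0 libraries, against 2424, 2289.8 and 2283 CPM in the WT day 0 libraries. CHLG had 102, 92.2 and 96.8 CPM in the ml2 day 0 libraries, against 174, 169 and 175 CPM in the WT day 0 libraries. The groups were apart for both genes, with log2 fold changes of -0.96 ± 0.08 for CHLH and -0.83 ± 0.06 for CHLG. GUN4 changed by -0.91 ± 0.08, DVR by -0.82 ± 0.08, CHLI1 by -0.77 ± 0.05 and PORC by -0.72 ± 0.06. Without ml2 day 0 replicate 1 CHLH stood at -1.12, GUN4 at -1.05 and CHLD at -0.65, where CHLD with all libraries was -0.49, and the counts of 25 and 2 were the same. The genes that were higher in ml2 were FC1, with 49.7, 48.9 and 51 CPM in the ml2 day 0 libraries, against 39.7, 36.5 and 37.8 CPM in the WT day 0 libraries, and HEMA2, with 32.3, 32.2 and 28.7 CPM in the ml2 day 0 libraries, against 25.7, 25.4 and 23 CPM in the WT day 0 libraries. Neither gene's groups overlapped. HO1 and HY2 did not pass, at 0.00 ± 0.05 and -0.03 ± 0.12. The summed mesophyll markers were 54606 to 59895 CPM in ml2 and 70254 to 72496 CPM in WT at day 0, and their part in these differences was not tested. With library sizes alone the calls for FLU, HEMB1 and HEMD were lost.

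At day 0 11 members were lower in ml5 than in WT and 6 higher, beside 18.7% and 19.6% of tested genes. The count of higher members thus lies near the background. The median was -0.03. The lines were set against the same WT libraries. PORA had 6.16, 5.65 and 4.44 CPM in the ml5 day 0 libraries, against 2.23, 1.83 and 2.22 CPM in the WT day 0 libraries, and PORB had 1190.1, 1209 and 1233 CPM in the ml5 day 0 libraries, against 803, 784 and 812 CPM in the WT day 0 libraries. Both genes were apart and higher in ml5, by 1.36 ± 0.25 and 0.60 ± 0.04, while PORC was lower, at -0.41 ± 0.06. HEMA2 had 45.1, 43.7 and 42 CPM in the ml5 day 0 libraries, against 25.7, 25.4 and 23 CPM in the WT day 0 libraries, a log2 fold change of 0.82 ± 0.07. GSA1, HEME2 and CHLP were also higher, by 0.30, 0.29 and 0.17. FC2 had the largest fall, with 80.1, 82.3 and 78.1 CPM in the ml5 day 0 libraries, against 126, 131 and 125 CPM in the WT day 0 libraries, which is -0.67 ± 0.06. GUN4 changed by -0.52 ± 0.08, CHLH by -0.38 ± 0.08, CHLI2 by -0.36 ± 0.09, CAO by -0.32 ± 0.04, HEMG1 by -0.29 ± 0.05 and CHLG by -0.26 ± 0.06. The calls for HEMA1 (-0.10), DVR (-0.23) and HO1 (-0.16) rest on single libraries. HO1 stood at -0.11 without ml5 day 0 replicate 3. DVR stood at -0.19 and -0.17 without ml5 day 0 replicates 1 and 3 and at -0.24 and -0.21 without WT day 0 replicates 1 and 3. HEMA1 missed the threshold without any one of 5 libraries, at -0.10 to -0.09, ml5 day 0 replicate 2 being the exception.

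After the dark week ml5 leaves held more of most chlorophyll transcripts than WT leaves. In all, 17 of 31 members were higher in ml5 and 4 lower, beside 19.2% and 24% of tested genes, and the median was 0.23. In the chlorophyll branch 9 of 13 were higher and 0 lower, with a median of 0.62; the summed level of the branch was 373 ± 5.04 CPM per kb in ml5 and 225 ± 3.49 in WT. CRD1 had 119, 118 and 122 CPM in the ml5 day 7 libraries, against 61.7, 60.1 and 59.9 CPM in the WT day 7 libraries. CHLP had 130, 128 and 131 CPM in the ml5 day 7 libraries, against 65.6, 68.2 and 62.1 CPM in the WT day 7 libraries. CHLM had 61.7, 57.1 and 54.1 CPM in the ml5 day 7 libraries, against 28.5, 30.7 and 28.6 CPM in the WT day 7 libraries. For these 3 genes every ml5 library exceeded every WT library, and the log2 fold changes were 0.98 ± 0.04, 0.99 ± 0.04 and 0.98 ± 0.06. GUN4 was higher by 0.83 ± 0.15, PORB by 0.66 ± 0.06, CHLH by 0.64 ± 0.08, CHLI1 by 0.64 ± 0.06, CHLG by 0.62 ± 0.09, FLU by 0.55 ± 0.07 and CAO by 0.53 ± 0.04. The ml5 levels of CRD1 and CHLP at day 7 remained far below those of any library at day 0. The summed mesophyll markers were 1812 to 1858 CPM in ml5 and 971 to 979 CPM in WT at day 7, 3 of the 4 being higher and 1 lower, and their part was not tested.

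The 4 members that were lower in ml5 than in WT at day 7 were HY2, FC1, HEMD and HO1. HY2 had 6.77, 7.09 and 8.9 CPM in the ml5 day 7 libraries, against 12.7, 12.2 and 14 CPM in the WT day 7 libraries. FC1 had 59.3, 55.1 and 59 CPM in the ml5 day 7 libraries, against 86.5, 90.2 and 88.8 CPM in the WT day 7 libraries. HO1 had 376, 379 and 373 CPM in the ml5 day 7 libraries, against 509, 507 and 500 CPM in the WT day 7 libraries. No groups overlapped for these genes, with log2 fold changes of -0.77 ± 0.12 for HY2, -0.61 ± 0.05 for FC1, -0.43 ± 0.05 for HO1 and -0.59 ± 0.09 for HEMD. So 3 of the 4 genes of the heme and bilin branches were lower in ml5. FC2 did not pass, at 0.04 ± 0.07 (adjusted p = 0.695, edgeR). Of all tested genes 24% were lower in ml5 at day 7, so 4 lower genes among the 31 members are no excess. Whether the count in the heme and bilin branches exceeds that share was not tested.

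Between ml2 and WT at day 7 no single direction prevailed: 7 members were higher in ml2 and 6 lower, beside 13.4% and 12.4% of tested genes, with a median of 0.01. PORB had 15.9, 18.3 and 17.6 CPM in the ml2 day 7 libraries, against 13.9, 12.8 and 13.3 CPM in the WT day 7 libraries, which is 0.37 ± 0.06. FC2 had 12.3, 10.9 and 12.9 CPM in the ml2 day 7 libraries, against 17.6, 16.8 and 16.1 CPM in the WT day 7 libraries, which is -0.49 ± 0.08. CHLG had 5.69, 4.78 and 5.48 CPM in the ml2 day 7 libraries, against 7.94, 6.92 and 6.69 CPM in the WT day 7 libraries, which is -0.44 ± 0.10. These groups were apart. HEMG2, CHLM, CHLP, HEMA1 and HEMA2 were higher by 0.28, 0.28, 0.27, 0.27 and 0.23, and FC1, CAO and HO1 changed by -0.23, -0.21 and -0.20. The calls for HEME1 (0.23) and CHLH (-0.31) were lost without ml2 day 7 replicate 3, where HEME1 stood at 0.14 and CHLH at -0.28. CHLH also lost its call without ml2 day 7 replicate 1 (-0.27), and HEME1 without WT day 7 replicate 3 (0.18). HEME1 lost it as well with library sizes alone (0.19), with limma-voom (0.23) and with only the libraries compared (0.23).

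**Figure D5:**
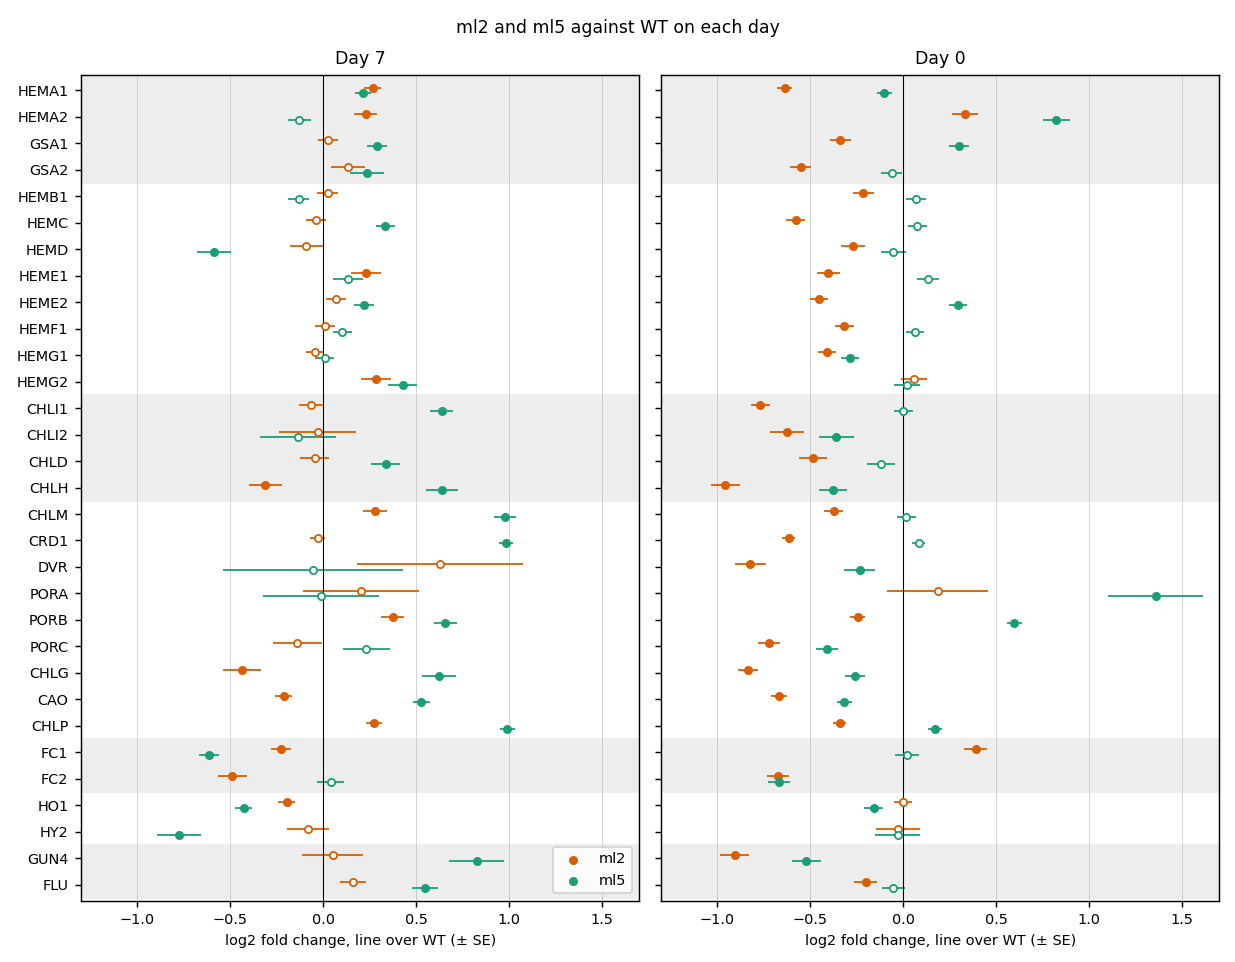
Log2 fold change of the 31 genes in ml2 and ml5 over WT, at day 7 (left) and day 0 (right); bars are the SE of the fit and open circles did not pass the adjusted threshold. At day 7 most chlorophyll genes of ml5 lie right of 0, and at day 0 most genes of ml2 lie left of it.

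Set against each other, ml5 exceeded ml2 over most of the pathway. At day 7 16 members were higher in ml5 and 6 lower, beside 19% and 22.4% of tested genes. In the chlorophyll branch 10 were higher and 0 lower. Of the 10, PORC (0.37) lost its call with limma-voom (0.37), without ml2 day 7 replicate 2 (0.31) or 3 (0.35) and without ml5 day 7 replicate 3 (0.32). Outside that branch HEME2 (0.15) lost its call without ml2 day 7 replicate 2 (0.13) or 3 (0.15). The same held without ml5 day 7 replicate 1 (0.15) or 2 (0.13). CHLG had 11.6, 10.2 and 11.5 CPM in the ml5 day 7 libraries, against 5.69, 4.78 and 5.48 CPM in the ml2 day 7 libraries, and CRD1 had 119, 118 and 122 CPM in the ml5 day 7 libraries, against 58, 59.4 and 60.6 CPM in the ml2 day 7 libraries. The groups were apart, at 1.06 ± 0.10 and 1.01 ± 0.04. HY2, HEMD, FC1 and HO1 were lower in ml5 at day 7, with -0.69, -0.49, -0.39 and -0.23. The rest of the 6 were genes of the common steps. HEMA2 stood at 40.4 ± 1.63 CPM in ml5 and 51.8 ± 1.48 CPM in ml2. HEMB1 (-0.16) lost its call with library sizes alone (-0.08), without ml2 day 7 replicate 1 (-0.15) and without ml5 day 7 replicate 1 (-0.15) or 3 (-0.14). At day 0 24 members were higher in ml5 and 2 lower, beside 14.1% and 14.6% of tested genes, and all 13 of the chlorophyll branch were higher, although CHLI2 (0.27) lost its call with library sizes alone (0.17), with only the libraries compared (0.25), without ml2 day 0 replicate 2 (0.26) or 3 (0.19) and without ml5 day 0 replicate 1 (0.23) or 3 (0.24). The largest of these differences were PORA, 1.17 ± 0.24, and PORB, 0.84 ± 0.04, and the 2 lower genes were FC1, -0.37 ± 0.06, and HO1, -0.16 ± 0.05, whose call was lost without ml2 day 0 replicate 2 (-0.11) or 3 (-0.14) and without ml5 day 0 replicate 3 (-0.11). Among the higher members at day 0 HEMD (0.22) lost its call with library sizes alone (0.12) and with only the libraries compared (0.20). HEMD also lost it without ml2 day 0 replicate 2 (0.18) or ml5 day 0 replicate 2 (0.18). The summed mesophyll markers were 1812 to 1858 CPM in ml5 and 890 to 933 CPM in ml2 at day 7, and 72112 to 74528 CPM in ml5 and 54606 to 59895 CPM in ml2 at day 0, and their part was not tested.

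The dark response of many members differed between a line and WT. The difference is the log2 fold change, day 7 over day 0, of the line minus that of WT, tested as an interaction, so a positive value for a gene that fell means a smaller fall in the line. For ml2 23 members had a positive and 2 a negative difference, beside 13.4% and 15.7% of tested genes, with a median of 0.46; 12 of the 13 chlorophyll genes were among the positive. Of the 23, CHLD, CHLG, CHLI2, FLU, HEMB1 and HEMF1 lost their calls with library sizes alone, at 0.29, 0.24, 0.44, 0.20, 0.09 and 0.17. CHLI2 (0.59) also lost its call with limma-voom, with only the libraries compared and, at 0.40 to 0.61, when a library was left out, except for ml2 day 0 replicate 1, ml2 day 7 replicate 2 and WT day 7 replicate 1; HEMB1 (0.24) did so without ml2 day 0 replicate 3 (0.20) or WT day 7 replicate 1 (0.19). For ml5 17 were positive and 7 negative, beside 17.2% and 18% of tested genes, with a median of 0.30; 9 chlorophyll genes were positive and PORA was negative. Of these, HEMB1 (-0.20) lost its call with DESeq2 (-0.16), RLE size factors (-0.16), library sizes alone (-0.17), the replicate block (-0.20) and without most single libraries. GSA2 (0.30) lost its call without ml5 day 0 replicate 1 (0.28), ml5 day 7 replicate 2 (0.25), WT day 0 replicate 1 (0.28) or WT day 7 replicate 1 (0.28) or 2 (0.29). In ml2 HEMA1 differed by 0.90 ± 0.06 and GUN4 by 0.96 ± 0.18, while FC1, which rose less than in WT, differed by -0.62 ± 0.08. DVR differed by 1.45 ± 0.45 and HO1 by -0.20 ± 0.07 in ml2. DVR, at 0.466 CPM in ml2 and 0.299 CPM in WT at day 7, lost its call with limma-voom (1.425) and without ml2 day 7 replicate 2 (1.26). HO1 lost its call with DESeq2 (-0.153) and with RLE size factors (-0.153). It also did so without ml2 day 0 replicate 2 (-0.15) or 3 (-0.18), ml2 day 7 replicate 2 (-0.17), WT day 0 replicate 1 (-0.19) or WT day 7 replicate 1 (-0.19). In ml5 GUN4 differed by 1.35 ± 0.17, CHLH by 1.02 ± 0.11, CHLM by 0.96 ± 0.08 and FC2 by 0.71 ± 0.09. The negative differences in ml5 included PORA (-1.37 ± 0.40), HEMA2 (-0.95 ± 0.09), HY2 (-0.75 ± 0.17), FC1 (-0.63 ± 0.08) and HO1 (-0.27 ± 0.07). Such a difference contains the values of both days: the median of the members in ml2 against WT was 0.01 at day 7 and -0.41 at day 0, and in ml5 against WT 0.23 at day 7 and -0.03 at day 0.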

How the data were processed

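RNA from leaves of ml2, ml5 and WT plants was sequenced in 18 libraries. The deposited values are estimated counts per gene, 97.12% of them whole, made by the authors; per the submitters' processing notes TopHat2 2.0.12 and Bowtie2 2.0.6 were used with the TAIR10 and IRGSP-1.0 builds, without a role for each, and the counting tool is not given in the sources used here. Library totals were 14914598 to 20417396, which limits the precision of low genes; intervals were not formed from single libraries.

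Counts were rounded to whole numbers and scaled by TMM, genes were kept with a minimum count of 10 (filterByExpr; 19493 kept, 8135 not), and 6 group means were fitted with edgeR 4.0.16 in R 4.3.3 (robust quasi-likelihood test, Benjamini-Hochberg adjustment over all tested genes, threshold 0.05). CPM were computed on the scaled library sizes. The SE of a log2 fold change comes from the information of the fitted group means and the quasi-likelihood dispersion. Interactions compare dark responses. Ratios, with a prior of 0.5 counts, and branch shares were compared by two-sided exact permutation tests over 3 libraries against 3. Levels per kb use transcript lengths of the TAIR10.1 annotation, which also gave coordinates and the 250 bases before each start. Of these steps only the edgeR test of ml5 against WT at day 7 was run on simulated counts. Alternatives were DESeq2 1.42.0, limma-voom (limma 3.58.1), other scalings and filters, subsets of libraries and a replicate block; branch shares without length scaling, and their values without single libraries, were added after seeing the data.

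All 31 members are named; of the other lists up to 3 genes with the smallest adjusted p in WT were named. Members and lists were chosen with earlier results of these data known.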

Additional observations from a re-analysis of the deposited data

Results flagged for a closer look

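The dark responses that differed between a line and WT are counted here because each difference was itself tested as an interaction. The test was edgeR's quasi-likelihood test with Benjamini-Hochberg adjustment. Of the differences that passed, only the largest and those of the heme and bilin branches are given by name. Among the differences that passed, 23 of the 31 genes had a higher log2 fold change in the dark in ml2 than in WT and 2 a lower one, beside 13.4% and 15.7% of all tested genes. The values of the line minus WT were 0.90 for HEMA1, 1.45 for DVR, 0.96 for GUN4, -0.62 for FC1 and -0.20 for HO1. The calls for DVR and HO1 rest on single libraries. DVR also lost its call with limma-voom, and HO1 with DESeq2 and with RLE size factors. In ml5 17 genes that passed had a higher and 7 a lower log2 fold change in the dark than in WT, beside 17.2% and 18% of all tested genes. The values were 1.35 for GUN4, 1.02 for CHLH, 0.96 for CHLM, 0.71 for FC2, -1.37 for PORA, -0.95 for HEMA2, -0.75 for HY2, -0.63 for FC1 and -0.27 for HO1. Both lines were set against the same WT libraries.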

How the results depend on the processing

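Of 265 called values of the 31 genes over 11 comparisons, 238 kept their call and direction under every alternative run. Of 1350 recomputed values for the 90 called dark responses, 4 lost the call. Library sizes in place of TMM moved the median of all tested genes by 0.38 in WT, 0.407 in ml5 and 0.227 in ml2 for the dark response, by 0.108 in ml2 against WT at day 0 and by -0.154 in the ml2 interaction. With it the share of higher among called genes was 65.3% in place of 49.7% in the ml5 dark response, 64.3% in place of 51.3% in WT, 67% in place of 49.6% in ml2 against WT at day 0, 41.3% in place of 52% at day 7, 26.7% in place of 49.2% in ml5 against ml2 at day 0, 59.8% in place of 45.9% at day 7 and 22.8% in place of 46.1% in the ml2 interaction. It turned HY2 in WT to 0.38, HEMA2 in ml5 to 0.30 and GSA1 in ml2 to 0.0707, and gave 4 members higher in ml2 than in WT at day 0 in place of 2. Members lower in ml5 than in ml2 at day 0 numbered 1 with only the libraries compared, and 1 to 2 with a library left out; those with a negative ml2 interaction numbered 1 with DESeq2 and 1 with RLE size factors, and 1 to 2 with a library left out. Without length scaling the share of the common steps in ml5 minus WT at day 0 was 0.338 percentage points, in place of -0.122. The chlorophyll share of ml2 at day 7 then also lay close to that of WT, as given above. The causes of the other changes were not tested.

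The deviations of same-numbered libraries correlated at -0.121 to 0.0772 (45 correlations). Whether equal numbers mark paired libraries is not stated in the labels and was not tested. The replicate block ended the calls of HEMA1 in ml5 against WT at day 0 (-0.10, adjusted p = 0.0582, edgeR) and HEMB1 in the ml5 interaction (-0.20, adjusted p = 0.0558, edgeR), and no other of the 31 genes' calls. Depth limits DVR and PORA at day 7.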
